A study of Homo sapiens with 6 samples.

Results

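The regions described here carried peaks of both BRG1 and SMARCC2 in LNCaP cells and a peak of exactly 1 of these proteins in MR49F cells. Overlap by 1 bp or more merged the peaks of the 4 deposited lists into 65315 regions on chromosomes 1 to 22 and X. Of these, 19473 were called with both antibodies in LNCaP and are termed LNCaP dual regions. Exactly 1 subunit was still called in MR49F at 2219 of them (11.4%, Wilson 95% interval 11 to 11.8), which is 3.40% of all regions. At 1340 regions SMARCC2 was kept and BRG1 was missing, and at 879 regions BRG1 was kept and SMARCC2 was missing. The members were chosen by the presence and absence of peaks, so these counts are a description.

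MR49F is an enzalutamide-resistant derivative of LNCaP, and its cells were grown with 10 µM enzalutamide, an antiandrogen. LNCaP, its parent, is an established androgen-sensitive line from a human prostate cancer metastasis, and the labels give no enzalutamide for it. Line and drug exposure therefore cannot be told apart. Both lines were grown in the same medium with serum and antibiotics, fixed with disuccinimidyl glutarate and then formaldehyde, and precipitated with the same 2 antibodies in 1 library per line and antibody. Differences between MR49F and LNCaP therefore have no replicate error, and p-values are not given. Intervals cover counting error only. A subunit is called missing where no peak passed the caller's threshold, which does not exclude weaker occupancy.

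BRG1, encoded by SMARCA4, is an ATPase that drives SWI/SNF, the complex that slides and ejects nucleosomes and so opens chromatin. SMARCC2, also called BAF170, is a scaffold subunit around which the complex is assembled. BRG1 is shared by several forms of the complex, and SMARCC2 can also sit in complexes driven by BRM, the other SWI/SNF ATPase. In prostate cells SWI/SNF works with the androgen receptor and with the pioneer factor FOXA1 at enhancers.

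The promoter sequences below are shown because they lie at the members with the strongest LNCaP peaks among those that reach a gene start, ranked by the weaker of the pair of LNCaP peaks. They are the 250 bases upstream of the start site, 5′ to 3′ on the strand of the gene, from RefSeq on GRCh38.p14, the same build as the hg38 peak lists. Capitals mark letters of the motifs listed with the promoter results. The first set lies at regions that kept SMARCC2 in MR49F. AGR2 is a protein disulfide isomerase of secretory epithelium, SLITRK3 is a neuronal adhesion protein, and TFPI inhibits the tissue factor pathway of clotting.
AGR2, chr7:16805000-16805249, minus strand: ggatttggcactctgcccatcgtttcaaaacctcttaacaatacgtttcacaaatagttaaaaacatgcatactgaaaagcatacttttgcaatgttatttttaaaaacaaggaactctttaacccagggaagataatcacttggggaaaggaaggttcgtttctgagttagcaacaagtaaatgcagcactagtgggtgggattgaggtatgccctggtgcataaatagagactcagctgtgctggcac
SLITRK3, chr3:165197110-165197359, minus strand: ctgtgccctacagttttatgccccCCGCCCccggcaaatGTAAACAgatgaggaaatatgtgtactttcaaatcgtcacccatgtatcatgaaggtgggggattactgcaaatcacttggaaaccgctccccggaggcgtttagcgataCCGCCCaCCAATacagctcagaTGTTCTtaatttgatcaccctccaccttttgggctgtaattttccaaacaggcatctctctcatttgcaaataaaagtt
TFPI, chr2:187554436-187554685, minus strand: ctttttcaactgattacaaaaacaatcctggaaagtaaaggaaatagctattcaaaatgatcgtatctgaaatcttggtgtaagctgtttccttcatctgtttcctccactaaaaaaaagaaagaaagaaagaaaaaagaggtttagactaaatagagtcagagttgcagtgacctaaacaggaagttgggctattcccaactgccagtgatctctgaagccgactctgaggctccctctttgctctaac
The region at AGR2 (chr7:16803645-16805718) had a summit pileup of 26 tags in MR49F SMARCC2, against 31.8 tags in LNCaP SMARCC2 and 32.0 tags in LNCaP BRG1. The pileup is the number of tags stacked at the summit, on the depth used by the peak caller. It takes no account of local background, whereas the authors' fold enrichment does, so those measures can order the lines differently. The nearest MR49F BRG1 peak was 4.07 kb away at AGR2, 348 kb away at SLITRK3 and 1.88 kb away at TFPI. No motif of the list was found in the AGR2 or TFPI sequence. The SLITRK3 region (chr3:165196421-165197206) covers only a part of the printed stretch and does not reach the letters GTAAACA, a forkhead motif.

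The second set lies at regions that kept BRG1 in MR49F. VANGL2 is a membrane protein of planar cell polarity, MINDY4B belongs to the MINDY family of deubiquitinase-like proteins, and TMEM260 is a membrane protein.
VANGL2, chr1:160400314-160400563, plus strand: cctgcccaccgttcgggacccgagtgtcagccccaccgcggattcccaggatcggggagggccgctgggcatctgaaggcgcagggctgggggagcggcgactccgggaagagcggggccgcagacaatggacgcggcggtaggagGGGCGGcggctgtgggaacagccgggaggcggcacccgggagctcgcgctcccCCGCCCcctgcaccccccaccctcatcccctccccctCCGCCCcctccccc
MINDY4B, chr3:150905440-150905689, minus strand: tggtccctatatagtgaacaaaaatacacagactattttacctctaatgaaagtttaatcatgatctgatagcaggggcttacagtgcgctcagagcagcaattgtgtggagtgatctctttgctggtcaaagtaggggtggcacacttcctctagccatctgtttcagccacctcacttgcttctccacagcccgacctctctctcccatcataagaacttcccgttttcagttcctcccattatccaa
TMEM260, chr14:56579548-56579797, plus strand: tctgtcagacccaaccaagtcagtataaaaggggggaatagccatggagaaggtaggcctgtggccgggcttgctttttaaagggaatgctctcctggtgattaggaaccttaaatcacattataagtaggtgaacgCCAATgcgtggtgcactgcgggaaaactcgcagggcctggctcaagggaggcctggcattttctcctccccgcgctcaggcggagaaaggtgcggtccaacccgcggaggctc
The region at MINDY4B (chr3:150905582-150906760) had a summit pileup of 26 tags in MR49F BRG1, against 34.0 tags in LNCaP BRG1 and 48.4 tags in LNCaP SMARCC2. Local background there, as a ratio of MR49F over LNCaP, was 0.791 in the BRG1 lists and 0.831 in the SMARCC2 lists. Its part in the lower pileup was not tested. The nearest MR49F SMARCC2 peak was 50.4 kb away at VANGL2, 141 kb away at MINDY4B and 25.9 kb away at TMEM260. At VANGL2 the motif letters are GC boxes, at TMEM260 a CCAAT box, and none was found at MINDY4B. The TMEM260 region starts at chr14:56579761, downstream of the CCAAT box, which it does not cover.

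Members were a minority of the regions that lacked a subunit in MR49F. Over all LNCaP BRG1 regions, 33.3% had no MR49F BRG1 peak, and over all LNCaP SMARCC2 regions 22.3% had no MR49F SMARCC2 peak. Among regions called with 1 antibody alone in LNCaP, the share was 51.6% for BRG1 and 44.6% for SMARCC2. Among LNCaP dual regions the same shares were 19.2% without MR49F BRG1 and 16.8% without MR49F SMARCC2. The regions that kept SMARCC2 made up 6.88% of LNCaP dual regions (6.53 to 7.25) and those that kept BRG1 4.51% (4.23 to 4.81), a ratio of 1.52. From the top 10000 peaks per list alone, the counts were 495 that kept SMARCC2 and 511 that kept BRG1, a ratio of 0.969, and with peaks of −log10 q of 5 or more they were 1020 that kept SMARCC2 and 492 that kept BRG1, a ratio of 2.07. Both subunits were kept at 14863 LNCaP dual regions (76.3%) and neither at 2391 (12.3%). In the reverse direction, 22.2% of the 34477 regions called with both antibodies in MR49F had exactly 1 subunit called in LNCaP. Of these MR49F dual regions, 5.75% had SMARCC2 only and 16.4% had BRG1 only in LNCaP.

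Since joining by overlap built the regions, the kept peak had to touch a LNCaP peak of either subunit in nearly all members, and the overlaps are given as a description. The MR49F SMARCC2 peak overlapped the LNCaP SMARCC2 peak at 98.3% of the regions that kept SMARCC2 and the LNCaP BRG1 peak at 98.8%. The MR49F BRG1 peak overlapped the LNCaP BRG1 peak at 98.9% of the regions that kept BRG1 and the LNCaP SMARCC2 peak at 96.1%. The MR49F summit lay a median of 82.0 bp from the LNCaP summit of the same subunit where SMARCC2 was kept and 131 bp where BRG1 was kept. Most members were simple, with at most 1 peak per list at 97.5% of the regions that kept SMARCC2 and 96.0% of those that kept BRG1. The share was 83.1% where both subunits were kept and 98.8% where neither was.

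Members held weaker and narrower peaks than regions that kept both subunits. Strength is given by the authors' −log10 q-value per peak, which enters the call itself, so these values are a description. The median LNCaP BRG1 peak width was 716 bp where SMARCC2 was kept and 850 bp where BRG1 was kept. It was 1029 bp where both were kept and 709 bp where neither was. For LNCaP SMARCC2 peaks the widths were 633, 582, 780 and 581 bp in the same order. The median region width was 970, 1105, 1624 and 862 bp in that order. A region joins peaks of more lists where more subunits were kept, so its width follows in part from the classes. In the LNCaP SMARCC2 list the median −log10 q was 7.23 at regions that kept SMARCC2 and 5.65 at regions that kept BRG1, against 8.70 where both were kept and 6.06 where neither was. In the LNCaP BRG1 list the median was 7.60 at regions that kept SMARCC2 and 7.76 at regions that kept BRG1, against 10.1 where both were kept and 6.86 where neither was. The groups of members thus sat close to each other in LNCaP BRG1, and the group that kept BRG1 sat lower in LNCaP SMARCC2, the subunit it lacked in MR49F. The ranges overlapped widely, since the middle 50% of LNCaP SMARCC2 values ran from 5.06 to 10.6 where SMARCC2 was kept and from 4.06 to 8.34 where BRG1 was kept.

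The balance between the subunits in LNCaP was measured by the log2 ratio of summit pileups, SMARCC2 over BRG1. Its median was −0.02 at regions that kept SMARCC2 (quartiles −0.27 to 0.22) and −0.19 at regions that kept BRG1 (quartiles −0.43 to 0.09). It was −0.08 where both were kept and −0.06 where neither was. The SMARCC2 pileup was the higher of the pair at 48.3% of the regions that kept SMARCC2 (45.6 to 51.0) and at 31.5% of the regions that kept BRG1 (28.5 to 34.7). So the subunit that was missing in MR49F already had the lower relative pileup in LNCaP at the regions that kept BRG1, while the regions that kept SMARCC2 had a ratio near even.

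**Figure D1:**
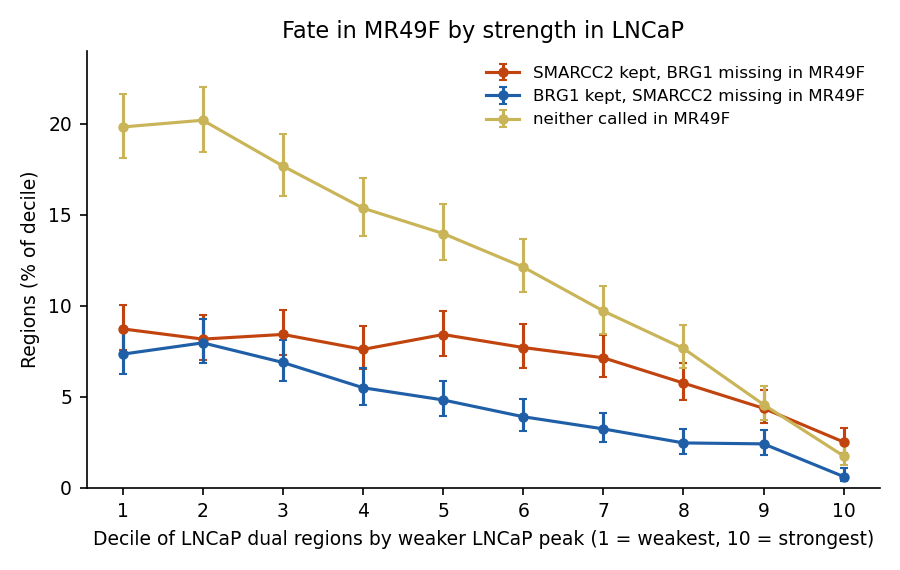
Share of LNCaP dual regions (vertical axis, % of each decile) that kept SMARCC2 only, kept BRG1 only or kept neither in MR49F, by decile of the weaker LNCaP peak's −log10 q (horizontal axis, weakest to strongest); bars are Wilson 95% intervals. The share that kept SMARCC2 was 8.73% in the weakest decile and 2.52% in the strongest, and the share that kept BRG1 was 7.34% and 0.616%.

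The share of members varied with LNCaP strength in both groups. LNCaP dual regions were ranked by the weaker of their LNCaP peaks and split into deciles of 1947 or 1948 regions. Regions that kept SMARCC2 made up 8.73% of the weakest decile, 8.42% of decile 5 and 2.52% of the strongest. Regions that kept BRG1 made up 7.34% of the weakest, 4.83% of decile 5 and 0.616% of the strongest. In the plot of fate by LNCaP strength, the share that kept SMARCC2 stayed between 7.14% and 8.73% over deciles 1 to 7, whereas the share that kept BRG1 was 3.24% in decile 7. The strongest decile held 49 regions that kept SMARCC2 and 12 that kept BRG1.

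In MR49F itself, the kept peak was a weak peak of its list. The kept SMARCC2 peak had a median −log10 q of 7.34, against 18.5 for MR49F SMARCC2 at regions with both subunits kept. The kept BRG1 peak had a median −log10 q of 5.48, against 15.8 for MR49F BRG1 at regions with both kept. Ranked within their lists from weakest to strongest, the kept peaks lay at a median percentile of 31.9 for SMARCC2 and 24.5 for BRG1. The kept peak had a −log10 q under 5 at 25.5% of the regions that kept SMARCC2 and at 43.3% of those that kept BRG1. The weakest kept SMARCC2 peaks had a −log10 q of 2.086, 2.157 and 2.177. Just outside the rule, the weakest MR49F BRG1 peaks of regions that kept both had 2.016, 2.016 and 2.034. The weakest kept BRG1 peaks had 2.050, 2.050 and 2.061, and just outside the rule the weakest MR49F SMARCC2 peaks had 2.086, 2.087 and 2.097.

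**Figure D2:**
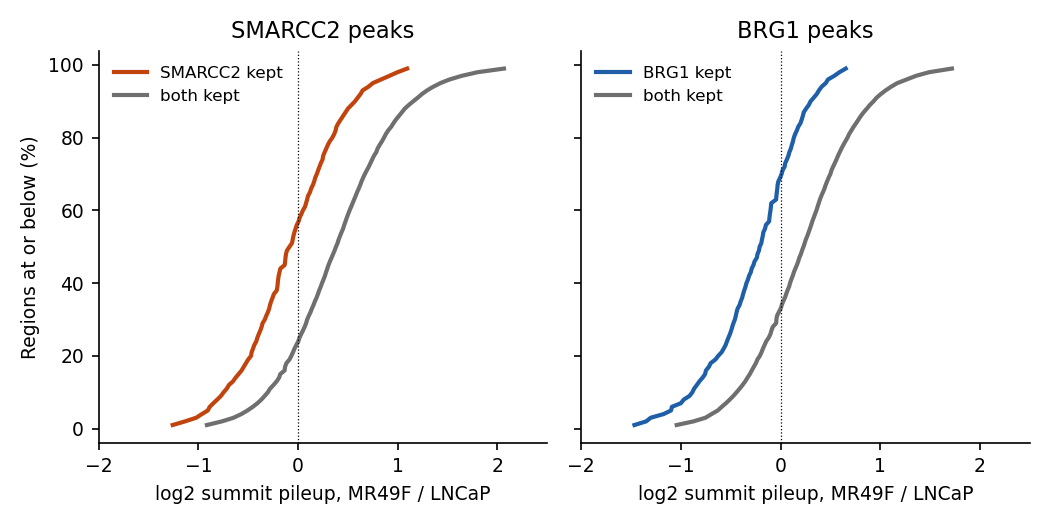
Cumulative share of regions (vertical axis, %) by the log2 ratio of the summit pileup in MR49F over LNCaP (horizontal axis), for SMARCC2 peaks on the left and BRG1 peaks on the right, in members and in regions that kept both subunits. The member curves lie to the left, with medians of −0.09 against 0.38 for SMARCC2 and −0.21 against 0.23 for BRG1.

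The summit pileup of the kept subunit was no higher in MR49F than in LNCaP at most members. Where SMARCC2 was kept, the median pileup was 22 tags in MR49F and 22.5 tags in LNCaP, and MR49F was higher at 43.2% of regions (40.6 to 45.9). Where BRG1 was kept, the median pileup was 21 tags in MR49F and 24.7 tags in LNCaP, and MR49F was higher at 30.8% (27.9 to 34.0). At regions that kept both subunits the order was the other way round. There MR49F was the higher at 76.2% of regions for SMARCC2, with medians of 38 tags in MR49F and 28.5 tags in LNCaP. For BRG1 it was the higher at 67.2%, with medians of 36 tags in MR49F and 31.6 tags in LNCaP. The plot of pileup ratios shows this displacement over the whole range. Pileups in MR49F were whole numbers for 100% of peaks under 100 tags and those in LNCaP for 3.95% (BRG1) and 2.91% (SMARCC2), within 0.02 tags, so the LNCaP values are on a scaled depth. The lowest local background was similar in MR49F and LNCaP, at 2.62 and 2.61 tags for BRG1 and 2.39 and 2.35 tags for SMARCC2. The median local background over all peaks was lower in MR49F. It was 4.56 tags in MR49F and 5.10 in LNCaP for BRG1, and 4.14 and 4.95 for SMARCC2.

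The named regions show the range of these values. The strongest LNCaP pair among regions that kept SMARCC2 lay inside CEMIP2, a membrane protein of hyaluronan turnover, at chr9:71725336-71726726. It had 35 tags in MR49F SMARCC2, against 80.4 tags in LNCaP SMARCC2 and 66.0 tags in LNCaP BRG1, and the nearest MR49F BRG1 peak was 31.6 kb away. The strongest kept SMARCC2 peak lay between genes, 44.0 kb from an end of OTX2, a homeobox factor, at chr14:56854077-56854898. It had 93 tags in MR49F SMARCC2, against 28.5 tags in LNCaP SMARCC2 and 22.5 tags in LNCaP BRG1. Here the kept subunit stood far above its LNCaP value, although no MR49F BRG1 peak was called within 193 kb.

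The strongest LNCaP pair among regions that kept BRG1 lay between genes, 22.5 kb from an end of CCNL1, a cyclin linked to RNA splicing, at chr3:157119975-157121171. It had 20 tags in MR49F BRG1, against 114 tags in LNCaP BRG1 and 97.7 tags in LNCaP SMARCC2, the lowest kept pileup relative to LNCaP among the 16 named regions. The local background of its 10 Mb window, as a ratio of MR49F over LNCaP, was 0.791 in the BRG1 lists and 0.831 in the SMARCC2 lists. The part of local background in this difference was not tested. A region inside GOLGB1, a Golgi matrix protein, at chr3:121732871-121733851, had 23 tags in MR49F BRG1, against 58.8 tags in LNCaP BRG1 and 63.7 tags in LNCaP SMARCC2, in a window with ratios of 0.980 and 0.984. The strongest kept BRG1 peak on a single-peak region lay 15.9 kb from KALRN, a guanine exchange factor, at chr3:124016585-124018259. It had 44 tags in MR49F BRG1, against 32.9 tags in LNCaP BRG1 and 30.7 tags in LNCaP SMARCC2.

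The missing subunit was called in the neighbourhood of some members. An MR49F BRG1 peak lay within 1 kb of 6.64% of the regions that kept SMARCC2 (5.43 to 8.10), within 5 kb of 23.3% and within 50 kb of 79.8%, with a median distance of 15.7 kb. An MR49F SMARCC2 peak lay within 1 kb of 9.56% of the regions that kept BRG1 (7.79 to 11.7), within 5 kb of 28.6% and within 50 kb of 87.7%, with a median of 12 kb. Where neither subunit was kept, 23.5% of regions had an MR49F BRG1 peak and 25.3% an MR49F SMARCC2 peak within 5 kb. These shares rest on how peaks are linked and filtered. With summits within 200 bp as the link, 55.6% of the regions that kept SMARCC2 and 62.5% of those that kept BRG1 had the missing subunit within 5 kb, and with the 10000 strongest peaks of each list 7.07% and 7.83% did. Another region that kept SMARCC2 lay within 10 kb of 3.58% (2.71 to 4.72) of the regions that kept SMARCC2, against 1.77% of regions that kept both subunits and 2.84% of those that kept neither. Another region that kept BRG1 lay within 10 kb of 1.59% (0.951 to 2.66) of the regions that kept BRG1, against 1.36% of regions that kept both and 1.84% of those that kept neither. A region that kept both subunits lay within 10 kb of 18.1% of the regions that kept SMARCC2 and 20.1% of those that kept BRG1.

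**Figure D3:**
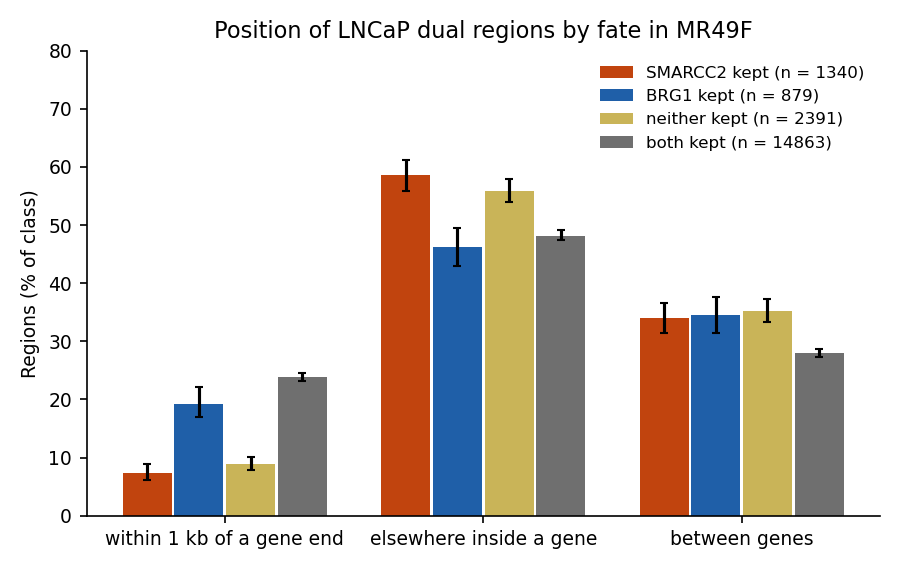
Share of regions (vertical axis, % of each class) by position of the midpoint (1 kb or less from a gene end, elsewhere in a gene, or outside genes), protein-coding genes only, for the 4 classes of LNCaP dual regions; bars start at 0 and error bars are Wilson 95% intervals. The 7.39% of regions that kept SMARCC2 at gene ends stand below the 19.3% of regions that kept BRG1 and the 23.8% that kept both.

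The 2 groups of members lay in different places relative to genes, a property that the rule did not use. Gene ends, taken as a midpoint 1 kb or less from where a protein-coding gene starts or stops, held 99 of the 1340 regions that kept SMARCC2 (7.39%, 6.11 to 8.91). They held 170 of the 879 regions that kept BRG1 (19.3%, 16.9 to 22.1). The share was 23.8% (23.1 to 24.5) where both were kept, 8.91% (7.83 to 10.1) where neither was, and 17.2% over all regions. The intervals of the 2 member groups did not overlap, and the share of the group that kept SMARCC2 was close to that of regions that kept neither. Where RefSeq gave a strand, the gene end was the start for 75 of 82 regions that kept SMARCC2 (91.5%) and 121 of 132 that kept BRG1 (91.7%). Regions elsewhere inside genes made up 58.6% of the group that kept SMARCC2 and 46.2% of the group that kept BRG1. With summits within 200 bp as the link, the shares at gene ends were 16.7% where SMARCC2 was kept and 27.7% where BRG1 was kept.

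Seen from the positions, LNCaP dual regions at gene ends kept SMARCC2 only at 2.46% (2.03 to 2.99) and BRG1 only at 4.23% (3.65 to 4.90). Inside genes the shares were 8.09% (7.57 to 8.65) for SMARCC2 only and 4.19% (3.81 to 4.60) for BRG1 only. Between genes they were 7.92% (7.25 to 8.65) for SMARCC2 only and 5.26% (4.71 to 5.87) for BRG1 only. The share that kept BRG1 thus differed little between gene ends and gene interiors, whereas the share that kept SMARCC2 was lower at gene ends. The share that kept neither was also lower there, at 5.30% against 13.8% inside genes. Both subunits were kept at 88.0% of LNCaP dual regions at gene ends and 73.9% inside genes. Among LNCaP dual regions above the median LNCaP strength, 1.69% at gene ends and 6.27% inside genes kept SMARCC2 only. The shares for BRG1 only were 1.75% at gene ends and 2.38% inside genes. The low share of SMARCC2 only at gene ends was also seen at or below that median, at 2.95% against 10.0% inside genes.

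The promoter table held a sequence for 15812 of 19974 protein-coding genes (79.2%). Its windows, 250 bases upstream and 50 bases downstream of the start, overlapped LNCaP dual regions at 3407 genes. SMARCC2 only was kept at 62 of these promoters (1.82%, 1.42 to 2.33) and BRG1 only at 111 (3.26%, 2.71 to 3.91). Neighbouring genes can share a region, so the 62 promoters came from 54 regions and the 111 from 102. Both subunits were kept at 91.9% of the promoters and neither at 3.02%. The median GC content of the upstream 250 bases was 62.8% where SMARCC2 was kept and 64.4% where BRG1 was kept, against 68.8% where both were kept and 62.4% over the whole table.

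Motifs were searched as exact letters on both strands of the upstream 250 bases. A promoter was classed by any overlap of its window with a region, so motif letters can lie outside the region. The search letters were CCGGAA for the ETS family, GGGCGG for the GC box and CACGTG for the E-box. They were AGAACA for the core of the androgen receptor element, TGTTTAC for forkhead factors and TGANTCA for AP-1, with N for any base. They were TGACGTCA for CRE and AAGATGGC for YY1, while the CCAAT box was searched as its name and NRF1 as its palindrome. No search word contains another, and neighbouring GC boxes can overlap. The ETS letters, the core bound by the ETS family that includes ERG and GABPA, were present in 30 of the 62 promoters that kept SMARCC2 (48.4%, 36.4 to 60.6). They were present in 25.2% (18.1 to 34.0) of those that kept BRG1, in 24.3% (22.8 to 25.8) of those that kept both and in 19.3% of all promoters in the table. The difference between the member groups depends on how peaks are filtered and linked. With peaks of −log10 q of 5 or more the shares were 36.2% where SMARCC2 was kept and 38.9% where BRG1 was kept, against 22.7% where both were. With the 10000 strongest peaks of each list they were 18.9% where SMARCC2 was kept and 15.4% where BRG1 was kept, against 15% where both were.

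GC boxes were present in 59.7% (47.3 to 71.0) of the promoters that kept SMARCC2 and 62.2% (52.9 to 70.6) of those that kept BRG1, below the 74.6% (73.1 to 76.1) where both were kept and near the 56.0% of all promoters. The androgen receptor core was present in 8.06% where SMARCC2 was kept and 8.11% where BRG1 was kept, against 9.41% of all promoters. For the other motifs the intervals of both member groups contained the share where both subunits were kept, as the plot of motif shares shows. The next sequences are shown because they hold an ETS core and lie at the strongest regions of that kind that kept SMARCC2; they were picked after the motif shares were seen. SLC9A5 is a sodium-proton exchanger, SPSB3 a substrate adaptor of a ubiquitin ligase, and IGF2R the receptor that clears IGF2 and sorts lysosomal enzymes.
SLC9A5, chr16:67248729-67248978, plus strand: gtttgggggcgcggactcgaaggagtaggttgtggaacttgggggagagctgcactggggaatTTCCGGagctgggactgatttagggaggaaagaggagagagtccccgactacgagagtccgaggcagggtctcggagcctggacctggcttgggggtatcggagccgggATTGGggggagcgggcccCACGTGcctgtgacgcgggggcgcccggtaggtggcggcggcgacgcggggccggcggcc
SPSB3, chr16:1782572-1782821, minus strand: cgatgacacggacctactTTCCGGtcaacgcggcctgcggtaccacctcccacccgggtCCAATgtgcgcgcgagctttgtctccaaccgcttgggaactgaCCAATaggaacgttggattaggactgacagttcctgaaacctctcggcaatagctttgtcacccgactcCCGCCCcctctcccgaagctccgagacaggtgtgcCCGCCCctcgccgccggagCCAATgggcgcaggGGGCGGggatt
IGF2R, chr6:159968832-159969081, plus strand: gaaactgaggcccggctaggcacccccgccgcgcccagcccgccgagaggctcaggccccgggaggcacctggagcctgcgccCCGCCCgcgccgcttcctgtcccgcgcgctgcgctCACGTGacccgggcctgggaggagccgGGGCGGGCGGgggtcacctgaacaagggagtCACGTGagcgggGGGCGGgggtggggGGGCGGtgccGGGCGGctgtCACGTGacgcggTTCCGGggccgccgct
In each, TTCCGG is the ETS core read on the opposite strand, and the other capitals are GC, CCAAT or E-boxes. The region at IGF2R (chr6:159969034-159969935) had 38 tags in MR49F SMARCC2, against 40.5 tags in LNCaP SMARCC2 and 37.9 tags in LNCaP BRG1, and the nearest MR49F BRG1 peak was 11.6 kb away. At SLC9A5 that distance was 0.811 kb and at SPSB3 0.486 kb, so a BRG1 call was close by in MR49F. Local background ratios, MR49F over LNCaP, were 0.849 (BRG1 lists) and 0.845 (SMARCC2 lists) at IGF2R. They were 0.818 and 0.804 at SLC9A5, and 0.806 and 0.919 at SPSB3. The SPSB3 region reaches the bases downstream of the start and ends short of the printed stretch.

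**Figure D4:**
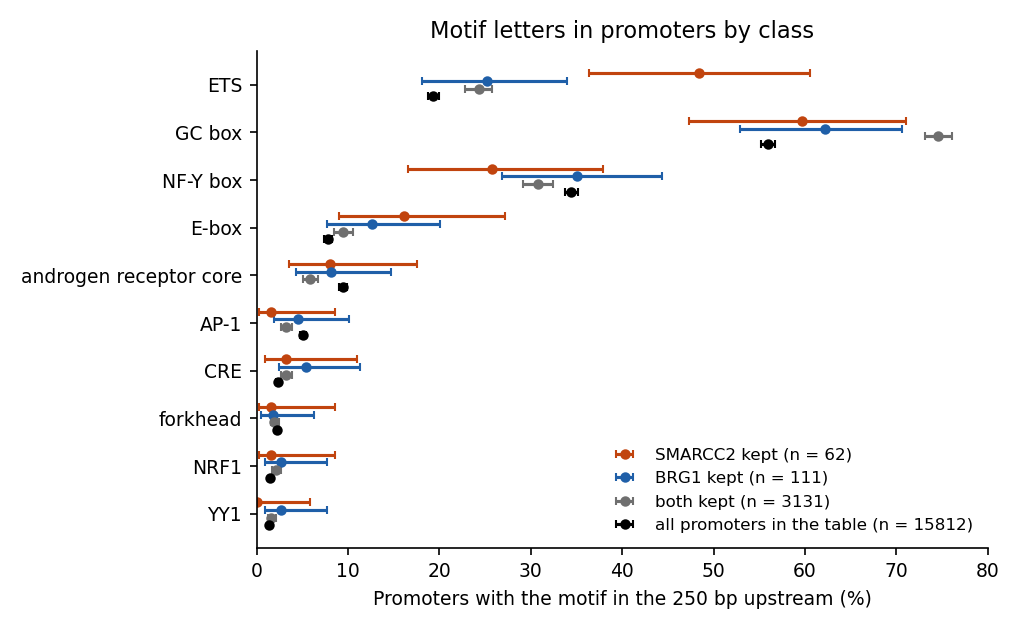
Share of promoters (horizontal axis, %) with the exact letters of each motif in the 250 bases upstream of the start, for promoters at members, at regions that kept both subunits and in the whole RefSeq table; bars are Wilson 95% intervals, and the CCAAT box is labelled NF-Y box after its factor. ETS is the motif whose interval where SMARCC2 was kept (36.4 to 60.6%) lies above the share where both were kept (24.3%).

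The share of members also varied between chromosomes. It was highest on chromosome 16, at 16% of LNCaP dual regions (13.2 to 19.2), and lowest on chromosome X, at 5.81% (3.55 to 9.37). Regions that kept BRG1 made up 9.38% on chromosome 16 and 8.59% on chromosome 19, against 4.51% over all chromosomes, and 0.775% on chromosome X, where there were 2. Regions that kept SMARCC2 made up 9.37% on chromosome 6 and 9.33% on chromosome 4, against 6.88% over all chromosomes, and 3.60% on chromosome 19. The group that kept SMARCC2 was the larger on most chromosomes but not on 16, 17, 19 and 20. On chromosome 16 the counts were 38 that kept SMARCC2 and 54 that kept BRG1, on chromosome 17 they were 29 that kept SMARCC2 and 45 that kept BRG1, and on chromosome 19 they were 13 that kept SMARCC2 and 31 that kept BRG1. Chromosome 20 had 20 that kept SMARCC2 and 21 that kept BRG1.

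**Figure D5:**
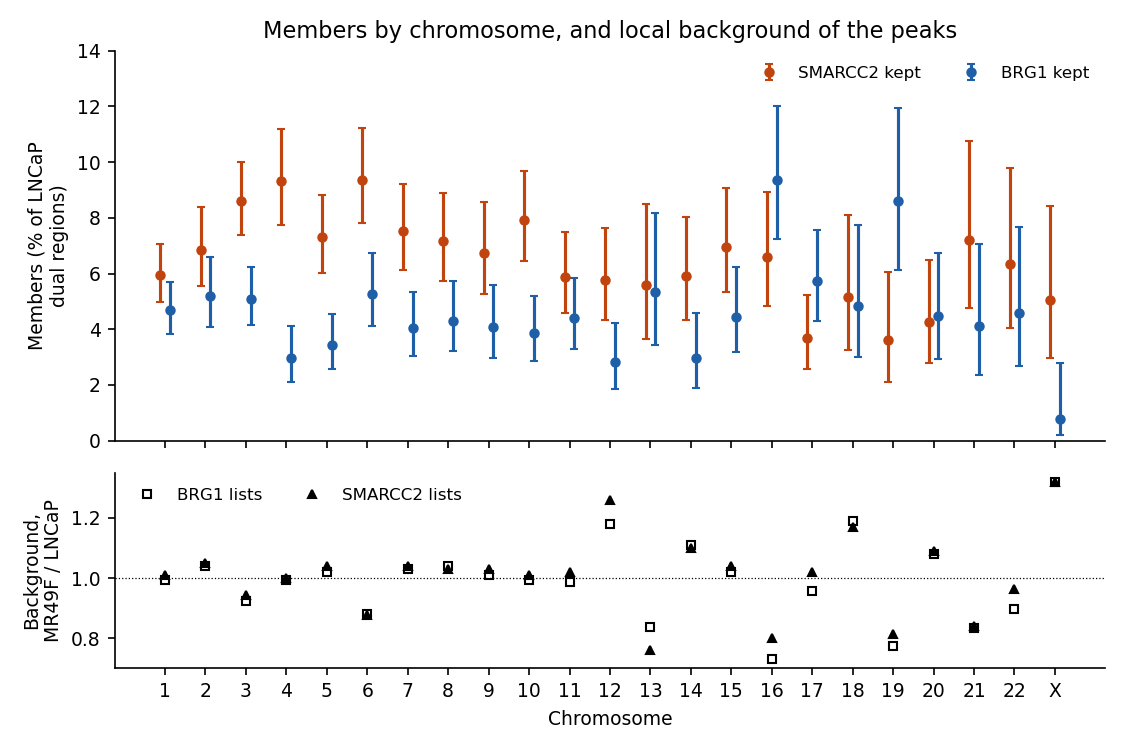
Upper panel, members as a share of LNCaP dual regions (vertical axis, %) by chromosome, with Wilson 95% intervals; lower panel, the ratio of median local background under peaks, MR49F over LNCaP, in the BRG1 and SMARCC2 lists. Chromosome 16, with ratios of 0.731 and 0.801, had the highest share that kept BRG1, 9.38%, and chromosome X, with 1.32 in both, the lowest, 0.775%.

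Local background differed between these chromosomes. The ratio of local background under peaks, MR49F over LNCaP, was 0.731 in the BRG1 lists and 0.801 in the SMARCC2 lists on chromosome 16, 0.774 and 0.813 on chromosome 19, and 1.32 in both on chromosome X. On some chromosomes a lower ratio went with a higher share of members, which was 11.4% over all chromosomes. Chromosome 6, with ratios of 0.882 and 0.876, had 14.6% members, and chromosome 12, with 1.18 and 1.26, had 8.58%. The shares did not follow the ratio on every chromosome. Chromosome 13, with ratios of 0.837 and 0.761, had 10.9% members, and chromosome 21, with 0.833 and 0.840, had 11.3%. On chromosome 21, regions that kept BRG1 made up 4.11% of LNCaP dual regions. Its share that kept neither subunit, 19.5%, was the highest of all chromosomes. On chromosome 19 the share that kept SMARCC2 was the lowest of all chromosomes, at 3.60%. In 10 Mb windows with a ratio under 0.9, 7.57% of LNCaP dual regions kept SMARCC2 only and 5.92% kept BRG1 only. In windows with a ratio of 0.9 to 1.1, 7.04% kept SMARCC2 only and 4.48% kept BRG1 only. In windows over 1.1 the shares were 5.71% for SMARCC2 only and 3.42% for BRG1 only. Peak lists alone do not tell DNA copy number from other sources of background, and the part of background in the chromosome shares was not tested. Within windows with a ratio of 0.9 to 1.1, gene ends held 6.72% of the regions that kept SMARCC2 and 18.0% of those that kept BRG1. Without chromosomes 16, 17 and 19 the shares at gene ends were 6.59% where SMARCC2 was kept and 17.6% where BRG1 was kept.

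Assignment of each region to the closest protein-coding gene end, up to 100 kb away, placed 1758 of the 2219 members. A region counted for a gene can thus lie between genes or inside another gene. At least 1 region that kept SMARCC2 was assigned to 895 genes and at least 1 that kept BRG1 to 721, with 64 genes holding both kinds. Most of the 1552 genes with a member held only 1 (1378 genes), and 24 held 3 or more. With assignment within 10 kb, 303 genes held a region that kept SMARCC2 and 351 a region that kept BRG1. The genes with the most regions that kept SMARCC2 were PPP3CA, the catalytic subunit of calcineurin, with 6, and POU2F1 (the octamer factor OCT1), FTO (an RNA demethylase) and EPHA3 (an ephrin receptor) with 4 each. ANKRD30A, MED28 (a Mediator subunit), NR6A1 (an orphan nuclear receptor) and SEMA3D (a secreted semaphorin) are 4 of the 10 genes with 3 each, taken by the share of their LNCaP dual regions that kept SMARCC2 and then by symbol. The order depends on the settings. With peaks of −log10 q of 5 or more PPP3CA had 2 such regions and FTO 4, with summits within 200 bp as the link PPP3CA had 2 and FTO 5, and neither had any within 10 kb of a gene end.

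PPP3CA spans chr4:101023418-101347526 and was assigned 23 LNCaP dual regions, of which 6 kept SMARCC2, 10 kept both and 7 kept neither. The first by position of these 6 lay between genes, 45.7 kb from the PPP3CA end. The 6 regions had 13, 15, 18, 18, 16 and 19 tags in MR49F SMARCC2, against 16.1, 20.7, 20.8, 20.6, 26.2 and 28.5 tags in LNCaP SMARCC2 and 19.4, 15, 16.2, 19.1, 26.8 and 29.9 tags in LNCaP BRG1. In each of the 6, the kept pileup was below its LNCaP value. By SMARCC2 fold enrichment the region at chr4:101321549-101326177 was about level, at 4.15 in MR49F and 4.08 in LNCaP. The others were lower in MR49F, some by little (3.19 against 3.39, 4.10 against 4.37) and some by more (3.23 against 5.37, 3.63 against 5.15). The background ratios of the PPP3CA window were 0.894 (BRG1 lists) and 0.875 (SMARCC2 lists). The part of local background in the lower pileups was not tested. SEMA3D showed another pattern, with 18, 30 and 38 tags in MR49F SMARCC2, against 34.0, 26.2 and 28.2 tags in LNCaP SMARCC2 and 22.4, 24.6 and 18.0 tags in LNCaP BRG1. At 2 of its 3 regions the kept pileup was above LNCaP, and the nearest MR49F BRG1 peak was 201 to 233 kb away. By fold enrichment each of the 3 was higher in MR49F SMARCC2, at 5.51, 8.70 and 9.38, against 4.38, 4.08 and 2.77 in LNCaP SMARCC2. Local background was 2.45, 2.56 and 3.16 tags in MR49F SMARCC2, against 6.98, 5.65 and 9.54 in LNCaP SMARCC2. One MED28 region lay at the gene end itself, 0.122 kb from it, with 21 tags in MR49F SMARCC2, against 20.8 tags in LNCaP SMARCC2 and 26.8 tags in LNCaP BRG1. Its SMARCC2 fold enrichment was 2.83 in MR49F and 3.99 in LNCaP.

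The genes with the most regions that kept BRG1 were LRRFIP1 and TBL1XR1 with 3 each. CACNA1S, ELN, PRDM10, TREH, CDYL2 and HLX are 6 of the 33 genes with 2 each, taken by the share that kept BRG1 and then by symbol. With peaks of −log10 q of 5 or more, and likewise with summits within 200 bp as the link, TBL1XR1 had 1 such region and LRRFIP1 had 0, and neither had any within 10 kb of a gene end. TBL1XR1 is a subunit of the NCoR corepressor complex, ELN is elastin, CACNA1S is a calcium channel of muscle, and HLX is a homeobox factor. TBL1XR1 spans chr3:177019344-177201800 and was assigned 22 LNCaP dual regions, of which 3 kept BRG1, 11 kept both and 8 kept neither. Its 3 regions had 22, 18 and 17 tags in MR49F BRG1, against 21.4, 33.9 and 37.0 tags in LNCaP BRG1 and 34.0, 35.1 and 22.2 tags in LNCaP SMARCC2. In pileup the first region was about level between the lines and the other 2 were lower in MR49F. By BRG1 fold enrichment the first was higher in MR49F, at 4.31 against 3.05 in LNCaP. The other 2 were lower, at 4.05 and 3.41 in MR49F against 4.62 and 4.91 in LNCaP. The background ratios of the TBL1XR1 window were 0.784 (BRG1 lists) and 0.790 (SMARCC2 lists), and at CDYL2 on chromosome 16 they were 0.499 and 0.571. Their part in these calls was not tested. At HLX, with ratios of 1.00 and 0.948, the 2 regions had 30 and 34 tags in MR49F BRG1, against 39.3 and 30.9 tags in LNCaP BRG1 and 19.7 and 35.2 tags in LNCaP SMARCC2.

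For comparison with gene groups, 16 lists with 343 entries were read against all genes, where 6.32% of the 15828 assigned LNCaP dual regions kept SMARCC2 only, 4.79% kept BRG1 only and 11.1% were members. Androgen response genes held 104 LNCaP dual regions, of which 9 kept SMARCC2 (8.65%), 2 kept BRG1 (1.92%) and 84 kept both. The 11 members, 10.6% (6.01 to 18.0), lay at 8 of the 31 genes. STEAP4, an androgen-regulated metalloreductase, had a member 0.173 kb from its end, at chr7:88306356-88307087, with 17 tags in MR49F SMARCC2, against 18.4 tags in LNCaP SMARCC2 and 29.9 tags in LNCaP BRG1. ABCC4, an exporter of prostaglandins and drugs, held 1 member of each kind among 6 LNCaP dual regions. The region that kept SMARCC2 had 15 tags in MR49F SMARCC2, against 15 tags in LNCaP SMARCC2 and 21.6 tags in LNCaP BRG1. The ABCC4 region that kept BRG1 had 16 tags in MR49F BRG1, against 16.2 tags in LNCaP BRG1 and 13.9 tags in LNCaP SMARCC2. At both ABCC4 regions the kept subunit was level between the lines.

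The androgen receptor and its partner factors held 93 LNCaP dual regions with 2 that kept SMARCC2 and 3 that kept BRG1, and all 3 of the second kind lay at TBL1XR1. NCOA2, a coactivator of steroid receptors, kept SMARCC2 at its gene end, at chr8:70455702-70456914, with 28 tags in MR49F SMARCC2, against 27.4 tags in LNCaP SMARCC2 and 28.9 tags in LNCaP BRG1. That was its single LNCaP dual region, and the nearest MR49F BRG1 peak was 51.2 kb away. Local background there was 7.89 tags in MR49F SMARCC2 and 3.68 in LNCaP SMARCC2. The fold enrichment was therefore lower in MR49F, at 3.26 against 6.08. NCOR1, a corepressor scaffold, kept SMARCC2 at 1 of 7 regions, with 42 tags in MR49F SMARCC2, against 27.3 tags in LNCaP SMARCC2 and 23.6 tags in LNCaP BRG1. The luminal epithelial list held no member among 42 LNCaP dual regions, with an interval of 0 to 8.38%, below the 11.1% over all genes. Cell cycle and MYC genes held none among 28, with an interval of 0 to 12.1%. In short marker sets, 9 of 10 luminal prostate markers had a peak in each of the 4 lists, against 1 of 4 basal and 0 of 5 neuroendocrine markers. None of these markers held a member, and peaks show occupancy, not expression. In the longer gene lists, 14 of 21 luminal epithelial genes had a LNCaP dual region. So did 11 of 17 basal and stem-like genes and 8 of 21 neuroendocrine genes.

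In the YAP and TEAD pathway, which reads cell contact and stiffness, 1 region kept SMARCC2 and 4 kept BRG1 of 42. YAP1 itself held 1 of each kind among 7 LNCaP dual regions. The YAP1 region that kept SMARCC2 had 28 tags in MR49F SMARCC2, against 36.3 tags in LNCaP SMARCC2 and 41.3 tags in LNCaP BRG1. The YAP1 region that kept BRG1 had 28 tags in MR49F BRG1, against 21.4 tags in LNCaP BRG1 and 23.9 tags in LNCaP SMARCC2, so the kept pileup was below LNCaP at one and above it at the other. The region that kept BRG1 lay between genes, and its BRG1 fold enrichment was lower in MR49F, at 2.97 against 3.33. AJUBA, an inhibitor of the Hippo kinases, and LATS2, a Hippo kinase, each had 1 region that kept BRG1.

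Wnt pathway genes held 5 regions that kept SMARCC2 and 2 that kept BRG1 of 48, each at a different gene. CTNNB1, which encodes β-catenin, had 17 tags in MR49F SMARCC2, against 16.1 tags in both LNCaP SMARCC2 and LNCaP BRG1, with an MR49F BRG1 peak 1.46 kb away. RNF43, a ubiquitin ligase that removes Wnt receptors, kept BRG1 at 0.333 kb from its gene end, with 19 tags in MR49F BRG1, against 21.5 tags in LNCaP BRG1 and 27.4 tags in LNCaP SMARCC2.

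Basal and stem-like genes held 3 members of 27 LNCaP dual regions, and all 3 kept BRG1. CD44, an adhesion receptor for hyaluronan, had 30 tags in MR49F BRG1, against 20.5 tags in LNCaP BRG1 and 20.8 tags in LNCaP SMARCC2, with an MR49F SMARCC2 peak 0.537 kb away. PROM1, a membrane protein used as a stem cell marker, had 23 tags in MR49F BRG1, against 24.5 tags in LNCaP BRG1 and 21.6 tags in LNCaP SMARCC2. Mesenchymal and adhesion genes held 2 members of 32, both of which kept SMARCC2. At ZEB2, a repressor of epithelial genes, the member had 23 tags in MR49F SMARCC2, against 31.8 tags in LNCaP SMARCC2 and 24.7 tags in LNCaP BRG1. The other lay between genes, 46.1 kb from an end of TGFB2, a growth factor. It had 26 tags in MR49F SMARCC2, against 26.2 tags in LNCaP SMARCC2 and 28.8 tags in LNCaP BRG1. The neuroendocrine list held 1 member of 9, which kept SMARCC2 between genes, 33.1 kb from an end of MYCN, at chr2:15906958-15907857. It had 30 tags in MR49F SMARCC2, against 32.9 tags in LNCaP SMARCC2 and 20.5 tags in LNCaP BRG1, and the background ratios there were 1.37 (BRG1 lists) and 1.48 (SMARCC2 lists).

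SWI/SNF subunit genes held 2 members of 36 LNCaP dual regions, both at ARID1B, a subunit of the canonical complex, and both kept SMARCC2. They had 17 and 32 tags in MR49F SMARCC2, against 18.5 and 34.6 tags in LNCaP SMARCC2 and 21.5 and 32.2 tags in LNCaP BRG1, and MR49F BRG1 peaks lay 0.258 and 2.35 kb away. Other chromatin regulators held 4 regions that kept SMARCC2 and 1 that kept BRG1 of 46. CHD1, a remodeller often deleted in prostate cancer, had 28 tags in MR49F SMARCC2, against 21.8 tags in LNCaP SMARCC2 and 30.9 tags in LNCaP BRG1. Local background at CHD1 was 9.58 tags in MR49F SMARCC2 and 3.58 in LNCaP SMARCC2. The fold enrichment was lower in MR49F, at 2.74 against 4.98. KDM1A, the histone demethylase LSD1, had the gene end closest to the region that kept BRG1, 31.9 kb away. That region lay inside another gene. It had 14 tags in MR49F BRG1, against 12.9 tags in LNCaP BRG1 and 13.9 tags in LNCaP SMARCC2.

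Receptor kinase and survival genes held 3 members of each kind among 64 LNCaP dual regions. FGFR1 and IGF1R each kept SMARCC2 at 1 region, and FGFR2 and IRS1, an adaptor of the insulin and IGF1 receptors, each kept BRG1 at 1. The FGFR1, FGFR2 and IRS1 regions lay between genes, 62.7, 10.5 and 67.3 kb from a gene end. The kept peak at FGFR1 had a −log10 q of 2.20, near the caller's threshold. At IGF1R the member had 19 tags in MR49F SMARCC2, against 20.7 tags in LNCaP SMARCC2 and 24.6 tags in LNCaP BRG1, with an MR49F BRG1 peak 0.677 kb away. Glucocorticoid targets held 1 member of each kind of 37. DUSP1, a phosphatase of MAP kinases, kept BRG1 2.45 kb from its gene end, with 27 tags in MR49F BRG1, against 37.9 tags in LNCaP BRG1 and 23.3 tags in LNCaP SMARCC2. Lipid and steroid metabolism genes held 3 regions that kept SMARCC2 and 1 that kept BRG1 of 27. HSD17B3, which makes testosterone from androstenedione in the testis, was among them, through a region between genes 65.6 kb from its end. That region had 15 tags in MR49F SMARCC2, with a −log10 q of 2.73, against 20.1 tags in LNCaP SMARCC2 and 27.7 tags in LNCaP BRG1. The AP-1 factor list held 1 member of 8, which kept BRG1 at the gene end of ATF2, with 25 tags in MR49F BRG1, against 21.6 tags in LNCaP BRG1 and 19.7 tags in LNCaP SMARCC2. The leukocyte list held none of 4, with an interval of 0 to 49.0%. For each of the 13 lists with a member, the interval of the share of members contained the 11.1% of all genes. Over all 16 lists this held for 15. The exception was the luminal epithelial list, with an interval of 0 to 8.38%.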

How the data were processed

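Occupancy of BRG1 and SMARCC2 was measured by ChIP-seq in MR49F and LNCaP, with 1 library per line and antibody; the inputs were not analysed here. Per the submitters' processing notes the tools were BWA 0.7.10, SAMtools and MACS2 2.1.0 on hg38, with no role or order given. No source used here gives the control, duplicate handling or depth. The deposited lists give per peak the authors' fold enrichment, −log10 p-value and −log10 q-value. The lowest deposited −log10 q-values lay between 2.001 and 2.014. The deposited display score was not used: it is 10 times the −log10 q-value without its decimals for at least 99.89% of peaks of each list.

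Peaks with 1 bp or more in common formed regions, classed by the lists present, with Python 3.11.15, NumPy 2.4.6, pandas 2.3.3 and SciPy 1.17.1; plots used matplotlib 3.10.9. A region takes the values of its strongest peak per list. A further 168 regions on chromosome Y and unplaced sequences were left out, 11 of which met the rule. Summit pileup and local background were solved per peak from the deposited fold and p-value, as fold = (pileup + 1) / (background + 1) and a Poisson tail; joining, distances and solving were checked on simulated data. Background ratios compare medians in 10 Mb windows with at least 20 peaks per list, relative to the autosomes. Genes came from RefSeq on GRCh38.p14.

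The members and gene lists were chosen with earlier results of these data known. Named genes were, per group, the 8 with the most members and up to 2 per gene list. Ties were settled by the larger share of a gene's LNCaP dual regions in that group and then by symbol. Named regions were the 5 with the strongest weaker LNCaP peak and the 3 with the strongest kept peak. Promoters were the 3 with the strongest weaker LNCaP peak among windows of the promoter table outside chromosome 8. Alternatives were stricter peak sets, other links between peaks, other gene distances and, added after seeing the data, subsets by background and chromosome and the ETS shares. Shares have Wilson 95% intervals, also where no region was counted.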

Additional observations from a re-analysis of the deposited data

How the results depend on the processing

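No paired analysis was possible because each line and antibody had 1 library and no result comes from a test. Values that moved beyond their interval, or by over 1.5 times for a count, follow, given for regions that kept SMARCC2 and then for regions that kept BRG1. With peaks of −log10 q of 5 or more, 492 regions kept BRG1, at 418 genes. Gene ends then held 9.02% where SMARCC2 was kept, the missing subunit lay within 5 kb at 19.1% and 19.3%, and ETS cores were in 36.2% and 38.9% of promoters. Median −log10 q was 9.63 and 10.3 in LNCaP BRG1 and 9.09 and 8.17 in LNCaP SMARCC2. With the 10000 strongest peaks of each list there were 495 and 511 members, gene ends held 10.9% and 26.6%, the 5 kb shares were 7.07% and 7.83%, and ETS shares 18.9% and 15.4%. Median −log10 q was then 15.6 and 15.8 in LNCaP BRG1 and 16.4 and 13.4 in LNCaP SMARCC2.

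With reciprocal overlap of 50%, gene ends held 14.5% where SMARCC2 was kept, the 5 kb shares were 51.3% and 57.3%, and ETS cores were in 33.7% where SMARCC2 was kept. Median −log10 q was 8.26 and 8.35 in LNCaP BRG1 and 7.67 and 6.73 in LNCaP SMARCC2. With summits within 200 bp, gene ends held 16.7% and 27.7%, the 5 kb shares were 55.6% and 62.5%, and ETS cores were in 34.0% where SMARCC2 was kept. Median −log10 q was 8.43 and 8.50 in LNCaP BRG1 and 7.64 and 6.60 in LNCaP SMARCC2. With gene ends taken as 500 bp the shares were 4.70% and 13.7%, and with 2 kb 9.25% where SMARCC2 was kept. Assignment within 10 kb left 303 and 351 genes. Stricter peak sets raise the medians and nearer links leave more peaks unlinked by construction; the cause of the other shifts was not tested. Among these settings and the subsets by background and chromosome, the gene-end share was lower where SMARCC2 was kept in each. Of values for single named genes, 38 moved and 26 did not.

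The design holds no replicate, so the spread between libraries is unknown. Members hold weak peaks near the caller's threshold, and depth and background differ between the lists. Line and enzalutamide exposure cannot be told apart.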
